A study of Mus musculus with 8 samples.

Results

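Aminoacyl-tRNA synthetases are described here across 8 RNA-Seq libraries of mouse brown adipose tissue (BAT), the fat that burns fuel to make heat. The 36 genes were taken by symbol from a list of 20 cytosolic and 16 mitochondrial enzymes, and all 36 were found among the 49452 genes of the deposited expression table. The members were selected on measured FPKM, since the list was chosen with the cold values in view, above all those of the mitochondrial cysteine enzyme Cars2. Values of the synthetases at 4 °C against 22 °C are therefore given as a description, without a test. The study asked which transcripts follow BAT activity under cold or obesity. All mice were male C57BL/6 with no transgene or deletion named, and every group held 2 libraries. The cold comparison used mice aged 10 to 12 weeks, housed at 22 °C (replicates 4 and 7) or exposed to 4 °C for 24 h (replicates 2 and 11). The diet comparison used mice aged 32 weeks after 28 weeks on a control diet (CD, replicates 6 and 8) or a high-fat diet (HFD, replicates 2 and 6). The labels call the CD food normal chow, and the methods describe a matched control diet. Fasting closed the cold exposure, and whether the 22 °C mice were fasted too is not clear, so cold and fasting cannot be told apart. Nothing says more of the replicates than their numbers and n = 2 per condition, so errors here cover the spread between these libraries, which may be partly technical. The 2 comparisons differ in age, so values set side by side across them, and ranges over all 8 libraries, are descriptions in which age and treatment cannot be told apart.

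Each of these enzymes joins a particular amino acid to its matching transfer RNA, the step that sets the genetic code and feeds every ribosome. Cells carry a set for cytosolic translation and a set, also encoded in the nucleus, for the few proteins made inside mitochondria, all of them parts of the respiratory machinery on which heat production in BAT depends. Symbols ending in 2 mark the mitochondrial enzyme. Gars and Kars are exceptions, since each gene supplies glycine or lysine enzyme to both compartments. Eprs charges both glutamate and proline, Farsa and Farsb are the subunits of the cytosolic phenylalanine enzyme, and 8 cytosolic enzymes (Eprs, Iars, Lars, Mars, Qars, Rars, Kars and Dars) sit together in the multisynthetase complex. When amino acids run short, uncharged transfer RNA activates the kinase Gcn2 (gene Eif2ak4), and the factor ATF4 then raises many stress genes, a number of cytosolic synthetases among them.

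The values are FPKM, fragments scaled to transcript length and to the mapped library, which allows levels of different genes to be compared per length. Fold changes are differences of mean log2(FPKM + 1) between groups, from limma on the 4 libraries of a comparison, with limma's standard error (SE). A gene was called at a Benjamini-Hochberg adjusted p under 0.05 together with at least a 2-fold change. By the step that 1 fragment makes in low values, the member with the fewest fragments in a library had about 386 to 736, so counting error was small for all 36. The BAT markers were present, with the 13 brown adipocyte genes summing to 7636 to 8118 FPKM at 22 °C, 16025 to 18643 at 4 °C and 9082 to 16294 in the diet groups. Much of the sum was Fabp4, for the study a common adipose marker, at 3769 and 3472 FPKM at 22 °C and 7595 and 6918 at 4 °C. In the cold 9 of the 13 were higher in both libraries and 3 lower in both, beside 37.9% and 20.6% of all genes. The libraries also split by the satellite repeat gene Gm10800, which exceeded 100 FPKM in replicate 4 at 22 °C, replicate 11 at 4 °C, replicate 8 on CD and replicate 2 on HFD, and values within library types are given for the cytosolic and mitochondrial medians, the partner ratios, the stress targets and Cars2, Yars, Eprs and Lars2.

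All 36 genes were above 0 in all 8 libraries, and 35 of them averaged at least 1 FPKM. Lars2, the mitochondrial leucine enzyme, stood highest with a mean of 174 FPKM over the libraries, followed by Gars at 37.3, the serine enzyme Sars at 33.2, Cars2 at 28.8 and Eprs at 27.1. The mitochondrial methionine enzyme Mars2 was lowest at 0.806 FPKM, below the mitochondrial proline enzyme Pars2 at 2.21. Neighbours in this order were rarely apart: in 34 of 35 neighbouring pairs the ranges over the libraries overlapped, and Pars2 above Mars2 was the exception. What set the genes apart was how much they varied. Cars2 had a coefficient of variation over the 8 libraries of 120%, Lars2 of 68.6%, Yars of 57.9% and Aars of 50.4%, against 48.4% or less for the other 32. At the other end, Kars varied by 9.77% and the mitochondrial isoleucine enzyme Iars2 by 11.5%.

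**Figure D1:**
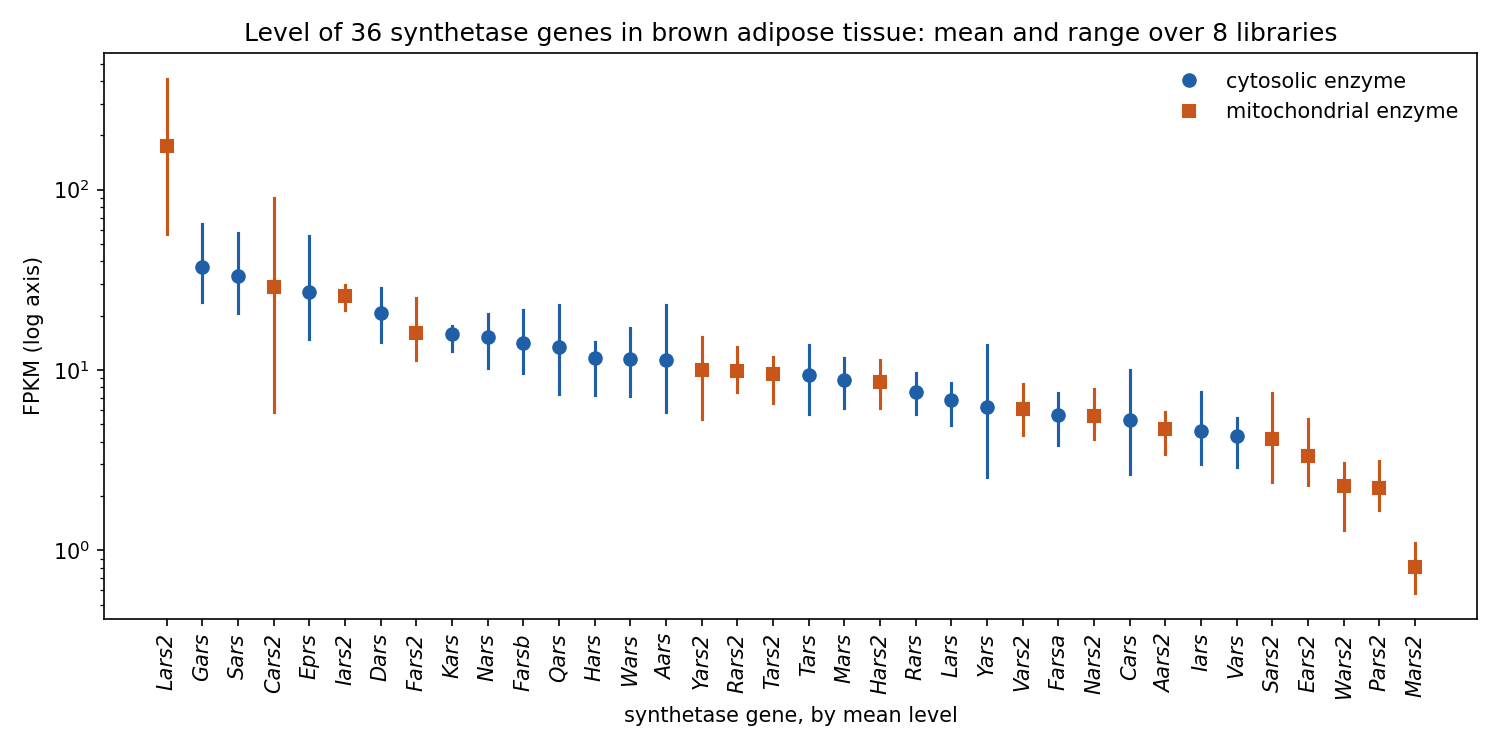
FPKM (log axis) of each of the 36 synthetase genes, ordered by mean level. Points are means over the 8 libraries and bars run from the lowest to the highest library, with cytosolic enzymes as circles and mitochondrial enzymes as squares. Lars2 lies highest at 174 FPKM, Mars2 lowest at 0.806 FPKM, and Cars2 has the widest relative range, 5.87 to 89.5 FPKM.

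Cars2 (ENSMUSG00000056228, chr8:11513977-11550783 on the minus strand, GRCm38), which charges mitochondrial cysteine transfer RNA, was the synthetase with the largest difference in the cold. Its level was 5.87 and 7.94 FPKM at 22 °C, 78.9 and 89.5 at 4 °C, 10.97 and 15.5 on CD and 6.92 and 15.1 on HFD. Both cold libraries lay far above the other 6, while CD and HFD overlapped. The group means were 6.91 ± 1.46 FPKM at 22 °C and 84.2 ± 7.52 FPKM at 4 °C (SD, n = 2 each), a 12.2-fold ratio and a log2 fold change of 3.44 (SE 0.23). Within library types the log2 difference was 3.72 between the satellite-high and 3.16 between the satellite-low libraries. Cars2 was the single member called at 4 °C, where 252 of 17470 genes tested, or 1.44%, were called. That count follows from how the list was chosen and nothing is read from it. No gene of the whole table was called without either 4 °C library, although the Cars2 log2 fold change stayed between 3.25 and 3.63 when any of the 4 libraries was left out.

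The start of the gene is shown because no other member moved as far. The letters below run from 250 bases before to 30 bases after the RefSeq start of Cars2 (GRCm38.p6, chr8:11550742-11551021, minus strand), and capitals mark a match to CCGGAAG, the letters bound by GABP, a factor of nuclear genes for mitochondrial proteins, here on the opposite strand and 18 bases before the start.
Cars2 promoter: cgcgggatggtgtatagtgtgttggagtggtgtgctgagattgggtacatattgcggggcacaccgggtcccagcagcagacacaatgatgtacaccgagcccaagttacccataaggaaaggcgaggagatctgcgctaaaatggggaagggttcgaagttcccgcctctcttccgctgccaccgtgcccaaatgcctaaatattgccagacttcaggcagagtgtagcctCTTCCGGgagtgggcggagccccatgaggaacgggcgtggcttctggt
These letters, searched on both strands of windows from 250 bases before to 50 after the start, were present in 9 of the 27 members with a RefSeq promoter (5 of 13 cytosolic and 4 of 14 mitochondrial) and in 9.93% of 27025 genes. The letters AAGGTCA of estrogen-related receptors (5.38% of genes) and the cAMP response element TGACGTCA (2.03%) occurred in none of the 27. Promoters of Cars, Hars, Hars2, Lars, Nars, Pars2, Rars, Vars and Wars were not analysed here.

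The cytosolic partner Cars (ENSMUSG00000010755, chr7:143557230-143600090), which charges cytosolic cysteine transfer RNA, moved less. It was at 2.64 and 3.09 FPKM at 22 °C, 9.96 and 6.71 at 4 °C, 4.72 and 3.49 on CD and 4.64 and 7.21 on HFD. Its cold libraries were above both 22 °C libraries, with a log2 fold change of 1.25 (SE 0.24). The ratio of Cars2 to Cars was 2.22 and 2.57 at 22 °C against 7.92 and 13.4 at 4 °C. On CD it was 2.32 and 4.45, and on HFD 1.49 and 2.09.

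Naxd, which repairs damaged NADH, overlaps the last 984 bases of Cars2 on the opposite strand (GENCODE M21), and 368 of the 7456 distinct 31-base words of Cars2 transcripts also occur in Naxd. Whether the counting used strand is not stated. Naxd was at 14.4 and 15.03 FPKM at 22 °C and 22.9 and 13.5 at 4 °C, so 4 °C replicate 11 lay below both 22 °C libraries. The Cars2 to Naxd ratio was 0.41 and 0.53 at 22 °C and 3.44 and 6.65 at 4 °C.

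**Figure D2:**
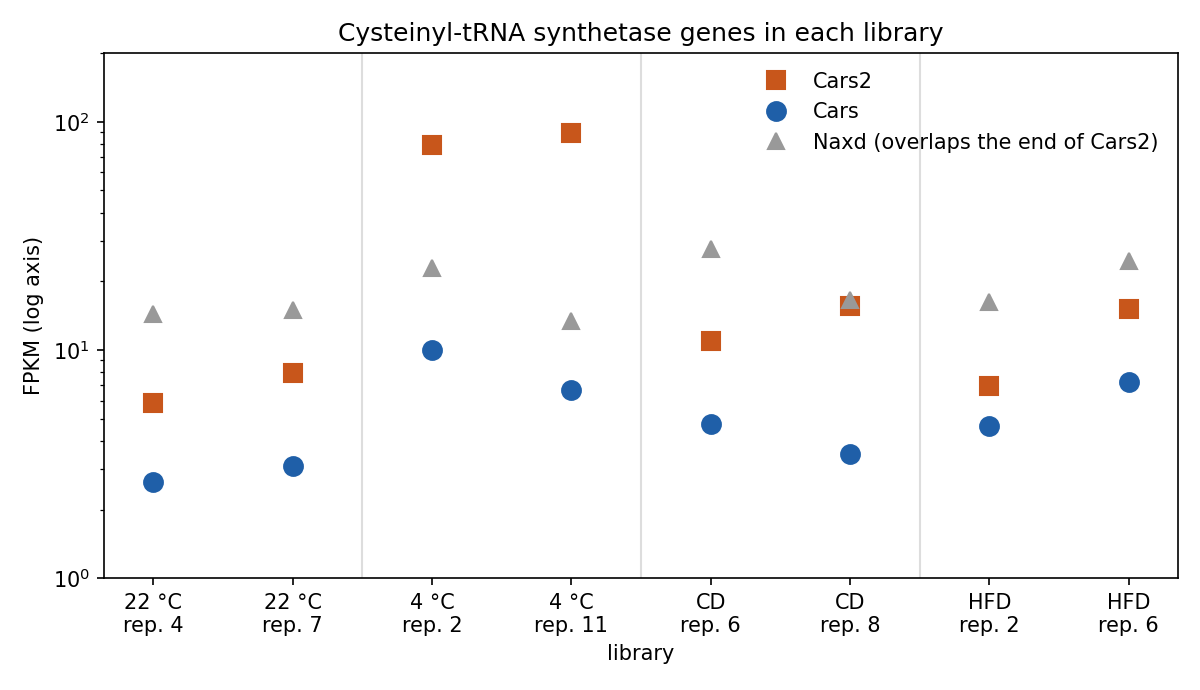
FPKM (log axis) of Cars2 (squares), Cars (circles) and Naxd (triangles) in each of the 8 libraries, 1 point per library. Cars2 lies at 78.9 and 89.5 FPKM in the 4 °C libraries and between 5.87 and 15.5 FPKM in the other 6, whereas Naxd stays between 13.5 and 27.6 FPKM.

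Cold libraries also differed in the genes of a neighbouring tissue. Of 12 skeletal muscle markers, 11 were found, and all 11 were higher in both cold libraries, beside 37.9% of all genes tested. Their summed level was 97.7 to 482 FPKM at 22 °C, 1681 to 3979 at 4 °C, 531 to 1319 on CD and 14.3 to 158 on HFD. Myh7, a slow myosin gene, was the single marker of these called at 4 °C (log2 fold change 3.94, adjusted p = 0.0176), where 1.22% of all genes were called higher. Fewer cells of a type and less RNA per cell cannot be told apart in such bulk tissue. The part of these markers in the cold values of the synthetases, Cars2 included, was not tested.

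Among the other cytosolic enzymes the largest cold differences belonged to Yars, Aars and Eprs. Yars (tyrosine, ENSMUSG00000028811, chr4:129189760-129219607) was at 2.54 and 2.94 FPKM at 22 °C, 13.7 and 6.10 at 4 °C, 6.54 and 3.73 on CD and 6.10 and 8.12 on HFD. Aars (alanine, ENSMUSG00000031960, chr8:111033144-111057664) was at 6.43 and 7.03 at 22 °C, 22.8 and 15.5 at 4 °C, 9.23 and 5.88 on CD and 10.9 and 12.97 on HFD. Both were above the 22 °C range in both cold libraries, with 4 °C replicate 2 the higher, and Aars was also above the CD range in both HFD libraries. In the cold the log2 difference was 1.45 (SE 0.37) for Yars and 1.36 (SE 0.24) for Aars. For Yars it was 1.004 between the satellite-high and 1.90 between the satellite-low libraries. Exosc6 lies within Aars on the same strand, shares 1296 of the 9393 words of Aars, and is listed at or next to 0 in all 8 libraries, so fragments of the 2 genes cannot be told apart there. Counts are uncertain in the same way for Iars, which shares 767 of 5273 words with Gm4849, and for Iars2, which shares 2004 of 8957 with Rab3gap2 on the opposite strand.

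Eprs (ENSMUSG00000026615, chr1:185363044-185428360) was at 18.8 and 17.8 FPKM at 22 °C, 55.3 and 33.5 at 4 °C, 21.5 and 14.9 on CD and 23.6 and 31.3 on HFD. Gars (ENSMUSG00000029777, chr6:55038007-55079500) was at 23.7 and 28.8 at 22 °C, 64.3 and 48.2 at 4 °C, 31.8 and 26.9 on CD and 35.8 and 39.1 on HFD. For both genes the second group of each comparison lay wholly above the first. The cold log2 fold change was 1.19 (SE 0.29) for Eprs and 1.06 (SE 0.25) for Gars. Eprs differed by 0.80 between the satellite-high libraries and by 1.59 between the satellite-low ones. Kars, the other gene that serves both compartments (ENSMUSG00000031948, chr8:111993443-112011323), was at 17.0 and 15.2 FPKM at 22 °C, 15.7 and 15.1 at 4 °C, 17.0 and 12.8 on CD and 16.6 and 17.6 on HFD. Over the alternatives tried, the cold value ran from 0.93 to 1.98 for Yars, 0.98 to 1.62 for Aars, 0.72 to 1.55 for Eprs and 0.55 to 1.27 for Gars. The groups of Kars overlapped in both comparisons, and its cold log2 fold change was -0.06 (SE 0.19).

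Over the 20 cytosolic enzymes, 16 were higher in both cold libraries, 4 overlapped (Dars, Kars, Qars and Vars) and none was lower in both. Over all genes tested, 37.9% were higher in both cold libraries, and 46.9% of those averaging at least 1 FPKM. The cytosolic log2 fold changes ran from -0.06 to 1.45 with a median of 0.67, beside 0.07 over all genes and 0.22 over protein-coding genes averaging at least 1 FPKM. Median centring lowered the median of all genes from 0.07 to -0.05 and that of the cytosolic enzymes to 0.39. Within library types the cytosolic median was 0.41 between satellite-high and 0.85 between satellite-low libraries. The 8 members of the multisynthetase complex had a median of 0.36, with 5 of 8 higher in both cold libraries, and the other 12 cytosolic enzymes had a median of 0.80, with 11 of 12. With median centring, quantile normalization and the autosomal sum, the complex median was 0.090, 0.081 and -0.011, so its sign turned under the last, and the other median was 0.52, 0.44 and 0.41. The complex scaffold genes Aimp1, Aimp2 and Eef1e1 were all higher in both cold libraries and none was called, with 2 at an unadjusted p under 0.05 in limma, beside 24.5% of all genes. The largest of them were Aimp2 at 0.84 (adjusted p = 0.127, 0.50 to 1.10 over the alternatives) and Eef1e1 at 0.66 (adjusted p = 0.204, 0.31 to 0.97).

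Promoters are shown next for the cytosolic enzymes that hold the letters TGATGNAA, the kind of site bound by ATF4 with a C/EBP partner. Searched on both strands, these letters occurred in 5 of the 13 cytosolic members with a RefSeq promoter, in 0 of the 14 mitochondrial ones and in 4.51% of all 27025 genes. Capitals mark the match, with up to 30 bases on either side and no more than 30 bases after the start. The build is GRCm38.p6, and all are written along the gene.
Aars, 112 bases before the start, chr8:111033700-111033767, plus strand: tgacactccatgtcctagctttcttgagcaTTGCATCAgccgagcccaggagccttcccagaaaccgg
Aars, base 10 of the transcript, chr8:111033821-111033871, plus strand: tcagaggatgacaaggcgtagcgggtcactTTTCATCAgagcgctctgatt
Yars, base 4 of the transcript, chr4:129189876-129189932, plus strand: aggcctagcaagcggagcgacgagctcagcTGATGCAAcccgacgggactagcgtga
Gars, 30 bases before the start, chr6:55037941-55038008, plus strand: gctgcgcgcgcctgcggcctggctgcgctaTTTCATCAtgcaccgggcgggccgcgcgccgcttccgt
Iars, base 8 of the transcript, chr13:49682107-49682159, plus strand: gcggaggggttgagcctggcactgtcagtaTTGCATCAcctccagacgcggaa
Tars, 15 bases before the start, chr15:11399636-11399703, minus strand: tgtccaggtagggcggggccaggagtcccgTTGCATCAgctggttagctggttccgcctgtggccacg
All 5 genes were higher in both cold libraries, and their log2 fold changes ran from 0.62 to 1.45 around a median of 1.06. The 8 cytosolic members with a promoter but without these letters had a median of 0.49, and 5 of 8 were higher in both, beside 46.9% of genes averaging at least 1 FPKM. Rescaling lowered the median of the 5 to 0.59 to 0.76 and that of the 8 to 0.13 to 0.23. A match is a description of the letters and not a measured site, no match overlapped one of another kind, and the 5 genes were not chosen independently of their cold values.

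Targets of the amino acid stress response were higher in the cold for the most part. Of 22 listed genes, 21 were in the table and 19 entered the test. The test called 4, all higher at 4 °C, beside 1.22% of all genes tested, and 16 of 19 were higher in both cold libraries, as were 37.9% of all genes and 46.9% of those averaging at least 1 FPKM. The median log2 fold change was 1.64, and 1.07 and 2.06 within the satellite-high and satellite-low libraries. The 3 tested targets whose groups overlapped were Asns, Psat1 and Phgdh, at log2 fold changes of 0.28, 0.50 and -0.38.

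The 4 called targets were Fgf21, Ddit4, Atf5 and Slc3a2. Fgf21, a hormone secreted under nutrient stress, was at 0.0611 and 0.104 FPKM at 22 °C and at 12.6 and 5.91 at 4 °C (log2 fold change 3.16, limma adjusted p = 0.0298). Ddit4, an inhibitor of mTORC1, was at 2.30 and 2.82 against 20.8 and 20.6 (2.61, adjusted p = 0.0196). Atf5, a stress transcription factor, was at 6.20 and 11.2 against 53.5 and 41.5 (2.36, adjusted p = 0.0442). In all 3 genes both cold libraries lay well above both 22 °C libraries. The same held for Slc3a2, the shared chain of amino acid transporters, at 18.6 and 19.98 against 96.3 and 63.8 FPKM (1.97, adjusted p = 0.0442). All 4 calls were lost without either 4 °C library and with no filter on low values, those of Atf5 and Slc3a2 also without 22 °C replicate 4, and that of Slc3a2 without 22 °C replicate 7. For these genes the alternatives gave adjusted p of 0.00204 at the least, with X, Y and mitochondrial genes kept, and 0.170 at the most.

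Eif2ak4 and the other 5 stress response kinase and phosphatase genes had none called in the cold (0 of 6 in limma, with 2 at an unadjusted p under 0.05, where 24.5% of all genes stood). The largest differences were Ppp1r15a, a phosphatase subunit, at 1.31 (adjusted p = 0.153, and 0.66 without 4 °C replicate 2 or 1.96 without replicate 11), and the kinase Eif2ak2 at -0.66 (adjusted p = 0.138).

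In the mitochondrial set the cold pattern was uneven. Of the 16 enzymes, 11 were higher in both cold libraries, 4 overlapped (Hars2, Iars2, Pars2 and Rars2) and the valine enzyme Vars2 was lower in both, at -0.34 (SE 0.20). The share with both cold libraries higher was 37.9% over all genes (46.9% of those averaging at least 1 FPKM), and 20.6% had both lower. The median was 0.38, and 0.37 and 0.41 within the satellite-high and satellite-low libraries. With Cars2 and Lars2 left out the remaining 14 had a median of 0.35 and ranged from -0.34 to 1.13, the top being the serine enzyme Sars2, whose 22 °C and 4 °C values were 2.38 and 2.96 against 7.42 and 6.65 FPKM. Median centring brought the median of these 14 to 0.13 and rescaling to the autosomal sum to 0.04. Cars2 alone made up 6.44% and 7.06% of the mitochondrial synthetase FPKM other than Lars2 at 22 °C, and 38.8% and 44.4% at 4 °C.

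**Figure D3:**
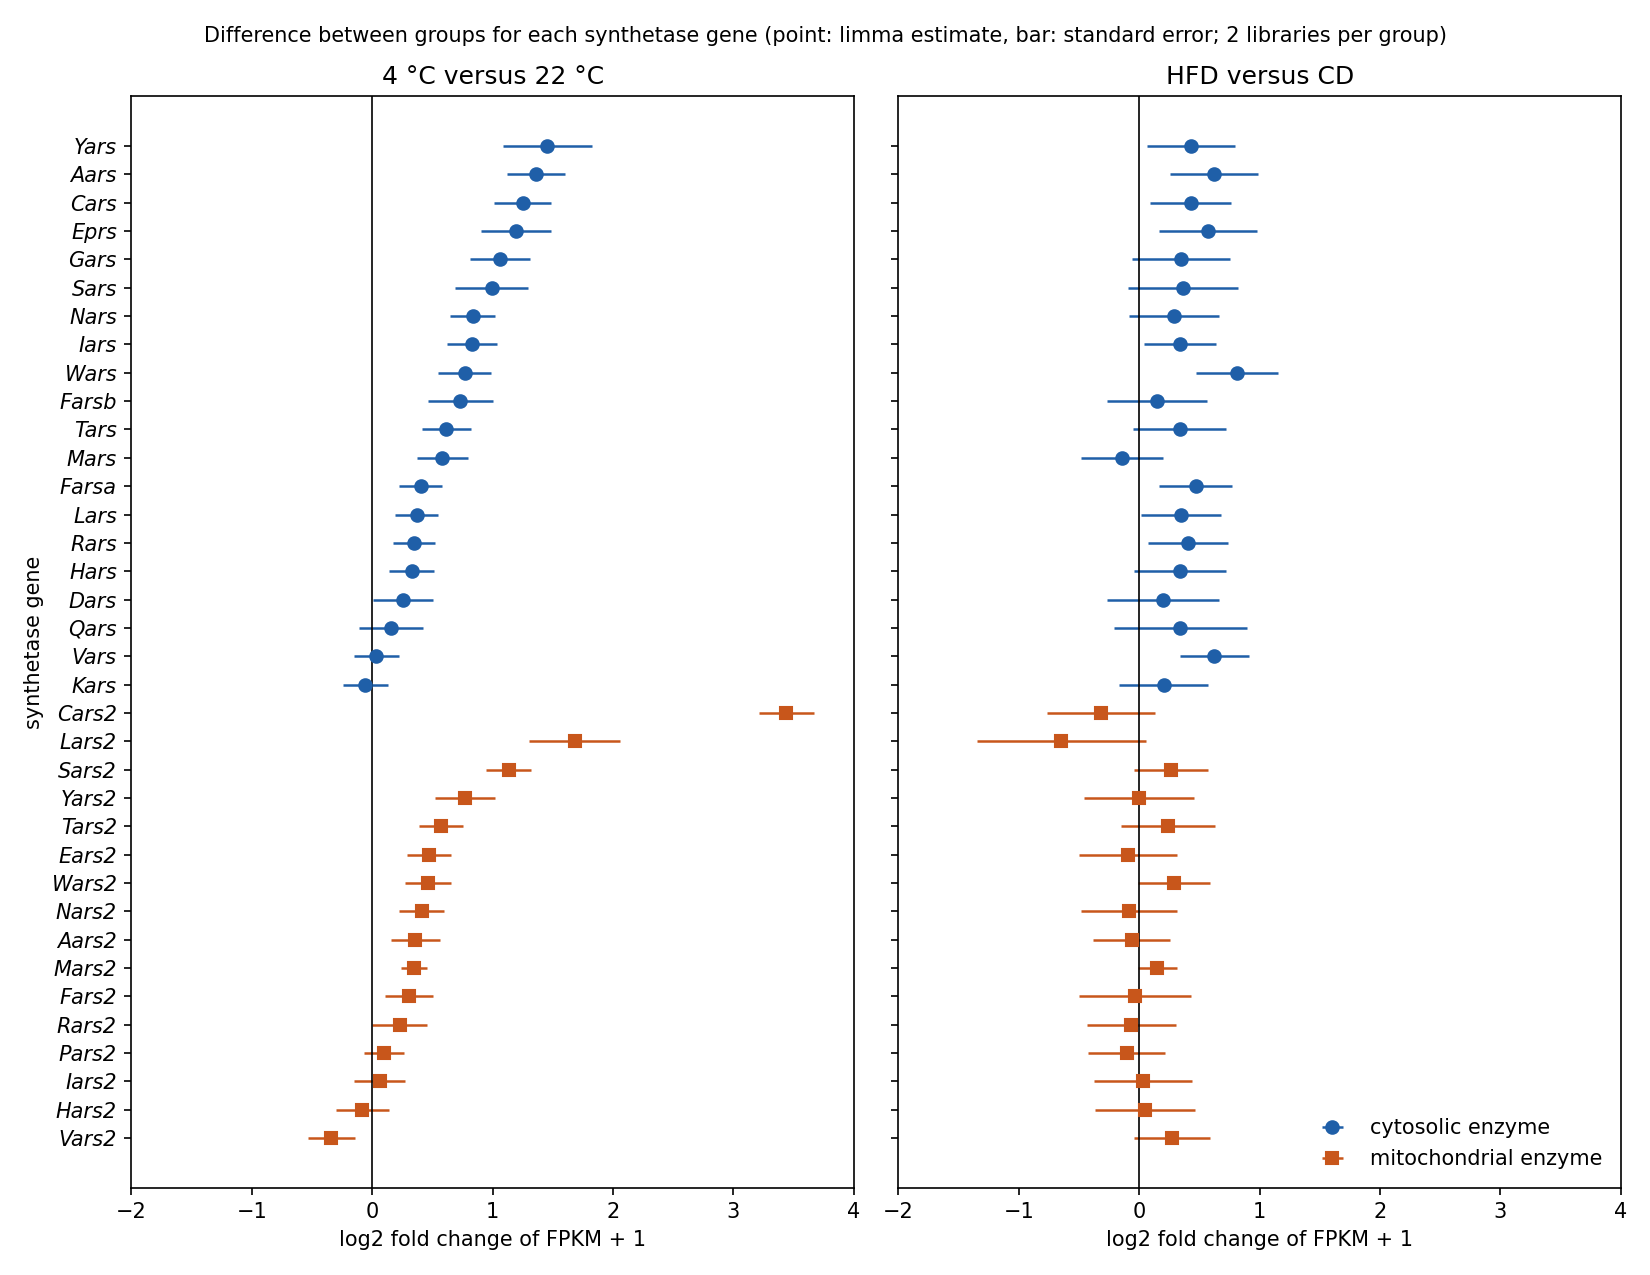
Log2 fold change of FPKM + 1 for each of the 36 genes at 4 °C versus 22 °C (left) and HFD versus CD (right), with cytosolic enzymes as circles above and mitochondrial enzymes as squares below. Points are limma estimates and bars their standard errors, from 2 libraries per group. In the cold Cars2 lies at 3.44, away from the others, which run from -0.34 to 1.68, and on HFD most cytosolic points lie above 0 while mitochondrial points lie on both sides.

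Lars2 (ENSMUSG00000035202, chr9:123366927-123462666) needs separate treatment. It was at 56.9 and 70.1 FPKM at 22 °C, 283 and 148 at 4 °C, 125 and 413 on CD and 175 and 120 on HFD. The cold libraries were above the 22 °C libraries (log2 fold change 1.68, SE 0.38, with 1.36 and 1.9995 within the satellite-high and satellite-low libraries), and CD replicate 8 was the highest of all. It was 9.88 to 83.8 times the level of its cytosolic partner Lars.

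After these values were seen, they were set beside AY036118, a gene model that carries ribosomal RNA sequence. AY036118 was at 205 and 235 FPKM at 22 °C, 1077 and 522 at 4 °C, 477 and 1390 on CD and 593 and 424 on HFD. The ratio of Lars2 to AY036118 stayed between 0.262 and 0.298 in the 8 libraries, while Lars2 ran from 56.9 to 413 FPKM and AY036118 from 205 to 1390. Gm42418 and Gm26917, further genes of such sequence, did not keep such a narrow ratio, as Lars2 was 0.834 to 2.64 times Gm42418 and 0.228 to 1.86 times Gm26917. Lars2 transcripts share no word of 20 bases with any of these 3 genes. Ribosomal RNA was depleted before sequencing, and whether the depletion or leftover ribosomal RNA set the Lars2 values was not tested. Sums over the mitochondrial set are therefore given with and without Lars2.

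**Figure D4:**
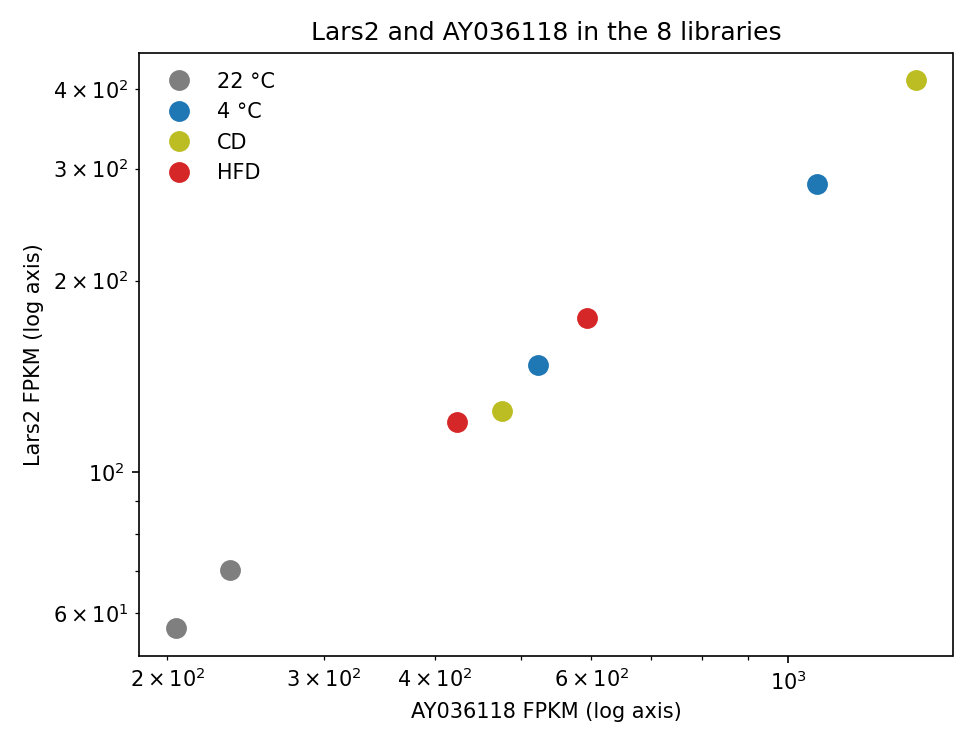
Lars2 FPKM against AY036118 FPKM (both log axes) in the 8 libraries, coloured by group, 1 point per library. The points lie along a line, with a ratio of 0.262 to 0.298, from 22 °C replicate 4 (56.9 and 205 FPKM) to CD replicate 8 (413 and 1390 FPKM).

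The mitochondrial share of all synthetase FPKM depended on these genes. It was 42.6% and 47.3% at 22 °C and 53.9% and 54.3% at 4 °C. Without Lars2 it was 31.4% and 35.6% against 32.8% and 40.6%, and the groups overlapped. Without Lars2 and Cars2 it was 29.98% and 33.9% against 23.0% and 27.6%, so the direction turned and both cold libraries were lower. A ratio within a library does not depend on the scaling of that library, and 2 libraries against 2 cannot reach an exact permutation p below 0.333.

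Partner by partner, 13 amino acids have 1 cytosolic and 1 mitochondrial gene. No share over pairs of other genes was computed, so the counts of pairs are descriptions. From 22 °C to 4 °C the log2 ratio of mitochondrial to cytosolic enzyme was lower in 9 pairs and higher in 4, with a median difference of -0.15. For 6 pairs both cold libraries lay below both 22 °C libraries (alanine, histidine, isoleucine, asparagine, valine and tyrosine), for cysteine and leucine both lay above, and 5 overlapped. The widest drop was alanine, where the log2 ratio of Aars2 to Aars went from -0.90 and -0.59 to -2.15 and -1.43. The widest gain was cysteine, from 1.15 and 1.36 to 2.99 and 3.74. Without the leucine and cysteine pairs the median difference was -0.41. Within library types the median over the 13 pairs was -0.12 for the satellite-high and -0.45 for the satellite-low libraries, with 7 and 10 pairs lower.

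**Figure D5:**
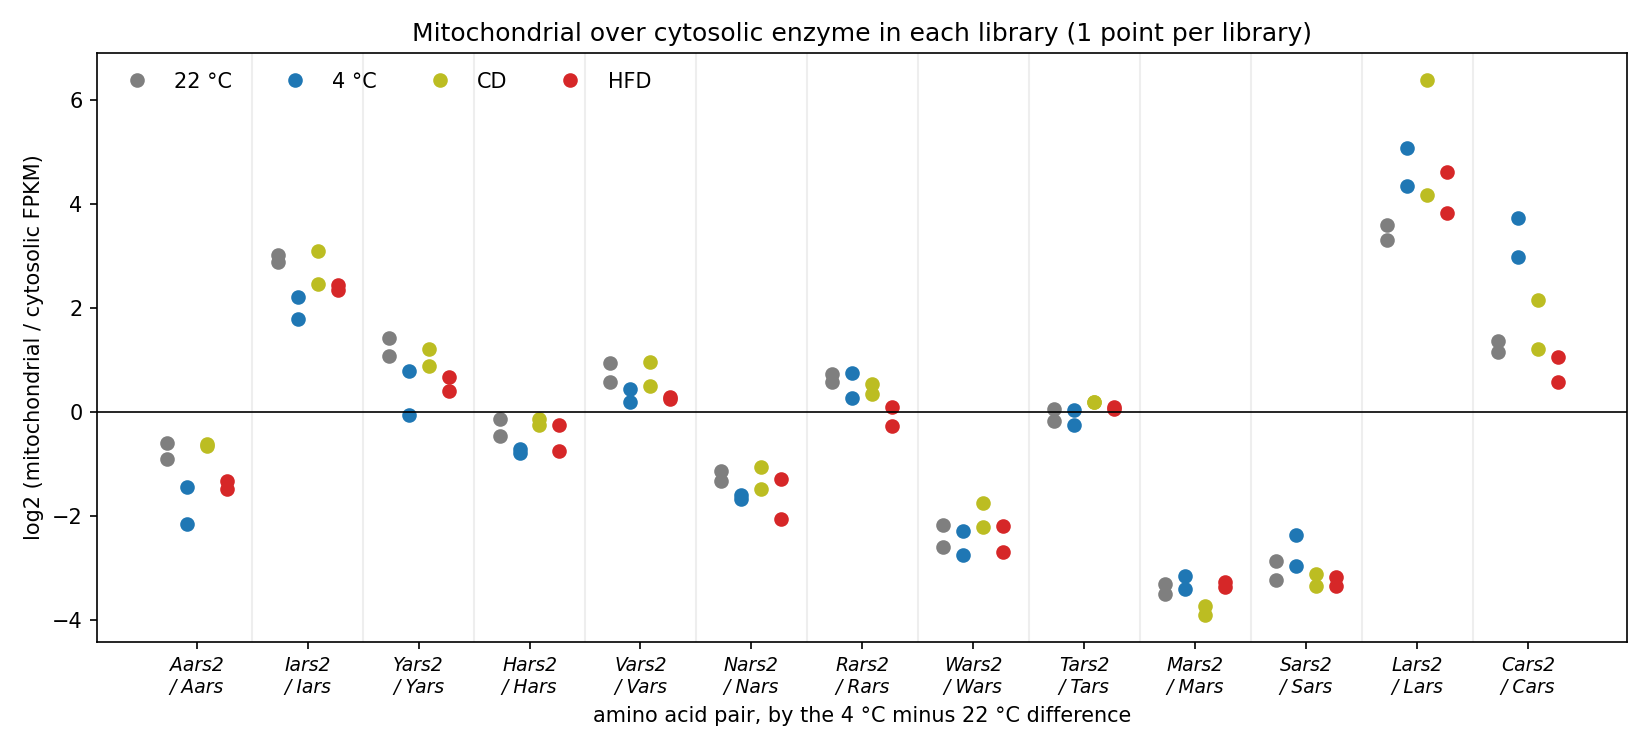
Log2 ratio of mitochondrial to cytosolic FPKM for each of the 13 amino acids with a gene in both compartments, 1 point per library, coloured by group, ordered by the difference between 4 °C and 22 °C. Cysteine and leucine lie to the right with higher ratios in the cold, by 2.11 and 1.27, and alanine lies at the left with a ratio lower by 1.05.

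The diet comparison was not used to choose Cars2 and allows a test. The test called no synthetase on HFD (0 of 36 in limma, with 1 at an unadjusted p under 0.05, beside 14.4% of all genes), where 12 of 17535 genes tested, or 0.0684%, were called. Cars2 overlapped between groups, at 13.3 ± 3.23 FPKM on CD and 10.998 ± 5.76 on HFD (SD, n = 2 each), and its log2 difference was -0.32 (limma SE 0.45, adjusted p = 0.788). Its within-type differences had opposite signs, -1.06 between the satellite-high and 0.43 between the satellite-low libraries. The difference between the cold and the diet log2 fold change of Cars2 was 3.76 (SE 0.53) in a fit that called 1.04% of genes, and it is a description, since it contains the cold values that chose the gene.

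The member at an unadjusted p under 0.05 was Wars, the tryptophan enzyme (ENSMUSG00000021266, chr12:108860030-108894174). It was at 8.72 and 7.16 FPKM on CD and 15.4 and 13.9 on HFD, and at 7.75 and 8.86 at 22 °C and 17.1 and 12.8 at 4 °C. Both HFD libraries lay above both CD libraries, by 0.81 on the log2 scale (SE 0.34, unadjusted p = 0.0474, adjusted p = 0.340). Vars, the cytosolic valine enzyme (ENSMUSG00000007029, chr17:35000987-35016322), was at 2.90 and 3.10 on CD and 4.90 and 5.45 on HFD, and at 4.43 and 4.37 at 22 °C and 5.04 and 4.06 at 4 °C. It too did not overlap between diets (0.62, SE 0.29, adjusted p = 0.379), yet it overlapped in the cold (0.03, SE 0.19). Over the alternatives the diet value ran from 0.42 to 0.94 for Wars and from 0.26 to 0.76 for Vars, below a 2-fold change throughout. The limma adjusted p ran from 0.0288 to 0.9998 for Wars and from 0.0416 to 0.9998 for Vars.

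The other members with the largest diet differences were Lars2, Aars and Eprs. Lars2 was at -0.65 (SE 0.70, adjusted p = 0.721), and the sign turned to 0.21 without CD replicate 8. Within library types its diet difference was -1.24 and -0.06. Aars was at 0.62 (SE 0.36, adjusted p = 0.492) and Eprs at 0.57 (SE 0.41, adjusted p = 0.574). Yars at 0.43, Cars at 0.43, Gars at 0.35 and Kars at 0.20 had adjusted p of 0.635, 0.616, 0.742 and 0.843. Without a library the values ran from 0.33 to 0.91 for Aars, 0.32 to 0.82 for Eprs, 0.093 to 0.77 for Yars and 0.16 to 0.70 for Cars, and median centring brought Aars to 0.24 and Eprs to 0.16. The remaining 26 members had adjusted p between 0.533 and 0.999.

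By compartment, 10 of 20 cytosolic enzymes were higher in both HFD libraries, 10 overlapped and none was lower in both. Of the 16 mitochondrial enzymes, 2 were higher in both (Mars2 and Vars2) and 14 overlapped. Over all genes tested, 39.9% were higher in both HFD libraries (39.2% of those averaging at least 1 FPKM) and 5.8% lower in both. The median log2 fold change was 0.35 for cytosolic and -0.02 for mitochondrial enzymes, beside 0.18 over all genes and 0.30 over protein-coding genes averaging at least 1 FPKM. Median centring moved these to -0.04 for cytosolic, -0.39 for mitochondrial and -0.02 for all genes, so the sign of the cytosolic median turned with the scaling, while the cytosolic median stayed above the mitochondrial one under median centring, quantile normalization and rescaling to the autosomal sum. Within the satellite-high libraries the cytosolic median was 0.52 and the mitochondrial 0.14, and within the satellite-low libraries 0.26 and -0.07.

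Ratios within libraries gave the same order on HFD. The log2 ratio of mitochondrial to cytosolic partner was lower on HFD in 12 of 13 pairs, with a median difference of -0.46, and for 8 of them both HFD libraries lay below both CD libraries. Here too no share over pairs of other genes was computed to set beside these counts. Methionine was the exception, where the log2 ratio of Mars2 to Mars was -3.73 and -3.89 on CD and -3.26 and -3.35 on HFD. In the alanine pair Aars2 to Aars was at -0.65 and -0.62 on CD against -1.33 and -1.47 on HFD. The ratio was lower in 12 of 13 pairs within the satellite-high and in 11 of 13 within the satellite-low libraries. Without Lars2, the mitochondrial share of synthetase FPKM was 35.4% and 34.7% on CD and 27.996% and 30.5% on HFD. With Lars2 it was 50.1% and 73.6% against 51.3% and 44.6%, and the groups overlapped.

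Other marker lists also differed between the diet groups, and bulk tissue does not show which cells these transcripts came from. Of 6 white adipocyte markers, 4 were called higher on HFD (Lep, Nnat, Mest and Npr3), and the 6 summed to 25.5 and 14.98 FPKM on CD and 216 and 222 on HFD. In the cold 3 of the 6 were higher in both libraries and 3 lower, beside 37.9% and 20.6% of all genes. All 6 proliferation genes were higher in both HFD libraries, and 10 of 11 skeletal muscle markers were lower in both. Of the macrophage markers, all 8 were higher in both HFD libraries and none was called, with 7 at an unadjusted p under 0.05 in limma, and their summed level was 39.4 to 111 FPKM on CD and 194 to 247 on HFD. Over all genes 39.9% were higher in both HFD libraries, 5.8% lower in both, 14.4% at an unadjusted p under 0.05 and 0.0684% called. The part of these markers in the synthetase values was not tested. The amino acid stress targets had none called on HFD (0 of 21 tested in limma, with 8 at an unadjusted p under 0.05 beside that 14.4%) and a median of 0.43. That median was 0.16, 0.20 and 0.29 with median centring, quantile normalization and the autosomal sum. The top members were the serine synthesis genes Phgdh, at 4.41 and 1.41 FPKM on CD and 15.6 and 24.7 on HFD (2.52, adjusted p = 0.138), and Psat1, at 2.32 and 0.58 against 7.13 and 9.65 (2.02, adjusted p = 0.149). Both were called with library type as a covariate (adjusted p of 0.00207 and 0.00504). Without a library Phgdh was called each time, at 1.94 to 3.10, and Psat1 without CD replicate 6 or HFD replicate 2, and over the alternatives the adjusted p ran up to 0.527 for both.

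The genes that work beside the mitochondrial synthetases were measured too. Of 9 mitochondrial translation factors, 7 were higher in both cold libraries and none was called, with 3 at an unadjusted p under 0.05 in limma and a median of 0.47, which was 0.20, 0.18 and 0.094 with median centring, quantile normalization and the autosomal sum. Over all genes, 37.9% were higher in both (46.9% of those averaging at least 1 FPKM) and 24.5% were at such a p. The elongation factors Gfm1, at 23.9 and 28.1 against 64.2 and 68.5 FPKM (1.32, adjusted p = 0.0517), and Tufm, at 30.8 and 33.4 against 70.1 and 62.3 (1.02, adjusted p = 0.0693), were largest, and over the alternatives they ran from 0.81 to 1.44 and from 0.49 to 1.10. Gfm1 was called in 5 alternatives (adjusted p of 0.0289 to 0.0487) and Tufm with library type as a covariate (adjusted p = 0.0427). On HFD the 9 factors had a median of -0.01, and 2 were higher and 1 lower in both libraries, beside 39.9% and 5.8% of all genes. The 4 genes for transfer RNA amidation and formylation, which replace or complete synthetase steps in mitochondria, had a cold median of 0.07 that turned to -0.19, -0.21 and -0.29 under the same rescalings, with Qrsl1 at 0.70 (adjusted p = 0.198, 0.34 to 1.04 over the alternatives) and Mtfmt at -0.27 (adjusted p = 0.384, -0.58 to -0.18).

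Tarsl2, a cytosolic threonine enzyme outside the list of 36, had 22 °C values of 5.37 and 4.56 FPKM and 4 °C values of 2.48 and 4.00 (-0.51, limma adjusted p = 0.261, -0.84 to -0.25 over the alternatives). Both cold libraries were lower, and the gene was not called. Of 10 cytosolic elongation and initiation factors, 6 were higher in both cold libraries and none was called, with 1 at an unadjusted p under 0.05 in limma and a median of 0.26 that turned to -0.030, -0.16 and -0.14 with median centring, quantile normalization and the autosomal sum, beside shares of 46.9% among genes averaging at least 1 FPKM and 24.5% among all genes. Eif4e, the cap-binding protein, was at 0.74 (adjusted p = 0.101) and Eif5a at 0.63 (adjusted p = 0.250). With quantile normalization these were 0.34 and 0.0620, with the autosomal sum 0.34 and 0.21, and without 4 °C replicate 2 Eif5a was at 0.35.

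Among 8 regulators of mitochondrial biogenesis, the coactivator Ppargc1a was called in the cold. It was at 10.9 and 10.8 FPKM at 22 °C, 107 and 73.6 at 4 °C, 4.39 and 5.86 on CD and 7.41 and 6.66 on HFD. The cold log2 fold change was 2.92 (limma adjusted p = 0.0208), and the call was lost without either 4 °C library and with no filter on low values. The other 7 regulators were not called, and the 8 had a median of 0.51, with 6 higher in both cold libraries. Over all genes 1.44% were called and 37.9% were higher in both (46.9% of those averaging at least 1 FPKM), and the median of the 8 was 0.22 with median centring and 0.12 with the autosomal sum.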

How the data were processed

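The authors depleted ribosomal RNA, made directional paired-end libraries and, by their methods, aligned reads to GRCm38 with Tophat2 and quantified Ensembl genes by Cufflinks. The submitters' processing notes name TopHat2 2.0.10, STAR and Cufflinks 2.2.1, whereas the methods give an earlier Cufflinks version and no STAR, so which aligner made these values is not settled. The authors deposited FPKM for every gene in each library, unpooled. Depth is not stated. In genes with 1 exon and 1 transcript of 600 to 3000 bases, 99.3% to 99.7% of low values were whole multiples of a step within 0.1 fragment, and 1 fragment on 2000 bases was worth 0.00441 to 0.00609 FPKM. Such figures speak of counting error alone.

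Comparisons used limma 3.58.1 (R 4.3.3, lmFit and trended eBayes, two-sided) on log2 of FPKM plus 1, with Benjamini-Hochberg adjustment over all tested genes of chromosomes 1 to 19 at 0.1 FPKM or more in at least 2 of the 4 libraries. Adding 1 understates changes of low genes. X, Y and mitochondrial genes were left out of the tests, because nearly all are listed at 0 in 3 libraries. For the X gene Alas2 these were replicates 4 and 7 of the 22 °C group and, on CD, replicate 6. Elsewhere Alas2 stood between 1.88 and 9.05 FPKM. In the cold comparison such a listing cannot be told apart from temperature. Its part in the FPKM of other genes was not tested. The authors tested counts with DESeq2, which were not used here. The script was tested on simulated data. The members, the other gene lists and the tests were chosen with earlier results of these data known. Values in every library are printed for Cars2, Cars, Gars, Kars, called members and the 5 largest log2 fold changes per comparison. From other lists, called genes or the 2 largest are named, outside the cell type markers, which are given by count and sum. Sars2, Vars2, Iars2, Mars2, Pars2, Naxd, Exosc6, AY036118, Gm42418, Gm26917 and Gm10800 were chosen after their values were seen. So were Asns, Fabp4, Alas2 and the cold values of Psat1 and Phgdh. Alternatives covered the pseudocount, the filter, scaling, library type, pooling of all libraries and leaving out each library. Overlaps and shared words came from GENCODE M21, promoters from RefSeq GRCm38.p6. A gene of the other lists that the rule names is not reported here.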

Additional observations from a re-analysis of the deposited data

Results flagged for a closer look

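In 3 genes of the stress response and mitochondrial biogenesis lists (synthetases and cell type markers set aside), the difference between 4 °C and 22 °C departed from the difference between HFD and CD by an interaction test in limma over all 8 libraries (196 of 18894 genes called). For Ddit4 the excess was 2.049 (adjusted p = 0.0381), for Fgf21 2.941 (adjusted p = 0.0357) and for Ppargc1a 2.524 (adjusted p = 0.0367). The comparisons share no library, and they differ in age, which cannot be told apart from the kind of treatment. Groups of 2 libraries were not examined for outlying samples.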

How the results depend on the processing

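No paired analysis was possible because the 22 °C and 4 °C libraries share no replicate number and CD and HFD share only the number 6. The cold count of 252 genes became 475 with a pseudocount of 0.1, 529 with a filter at 1 FPKM, 538 with median centring, 489 with quantile normalization, 534 with rescaling to the autosomal sum, 439 in a fit of all 8 libraries, 859 with library type as a covariate, 920 with X, Y and mitochondrial genes kept and 0 with no filter (4689 at an unadjusted p under 0.05). It ran from 0 to 244 when a library was left out, with 0 without 4 °C replicate 2 (3740 unadjusted) or replicate 11 (5726) and 122 without 22 °C replicate 7. In the same order as the first 9 settings, leaving out the autosomal sum, the synthetases called were 2, 4, 2, 3, 3, 8, 4 and 0. These counts follow from how the list was chosen, and nothing is read from them. X genes listed at 0 at 22 °C, such as Alas2, entered the fit of 920 calls as higher in the cold by their listing. Nothing is read from that count either.

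The diet count of 12 became 24 with a filter at 1 FPKM, 75 with all 8 libraries and 744 with library type as a covariate. It was 0 with no filter (2490 unadjusted), median centring (1963), quantile normalization (2126), the autosomal sum (2287) or X, Y and mitochondrial genes kept (2533), and 123 to 752 without a library, where 1 library of a group stands alone and is assumed to vary like the other group. No setting called a synthetase on HFD. The interaction count of 196 became 407, 410, 678 and 599 with median centring, quantile normalization, the autosomal sum and the covariate.

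The cold difference in mitochondrial share, 9.11 percentage points, was 4.14 without Lars2 and Gars and, in alternatives chosen after seeing the data, 3.23 without Lars2 and -6.67 without Lars2 and Cars2. As a difference of mean log2 values it was -0.0560. Without a library it ran from 6.78 to 11.4, and on diet from -25.6 to -2.10. The partner median in the cold was -0.41 without leucine and cysteine, also chosen after seeing the data, as were the values within library types, and -0.357 to -0.0733 without a library (-0.64 to -0.23 on diet).

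Signs turned for Kars in the cold (0.0210 without 22 °C replicate 4, range -0.136 to 0.0210 without a library), Vars in the cold (-0.22, -0.20 and -0.31 with median centring, quantile normalization and the autosomal sum, -0.0943 without 4 °C replicate 2, range -0.0943 to 0.162), Cars2 on diet (0.192 without HFD replicate 2, range -0.828 to 0.192), Gars on diet (-0.0716, median centring), Kars on diet (-0.20, median centring, and -0.0609, quantile normalization) and Lars2 on diet (0.211 without CD replicate 8, range -1.50 to 0.211). The causes were not tested. Of 507 alternative values for named genes, 448 kept direction and side of the threshold, 28 gained a call, 21 lost one and 10 turned. Nothing is read from the part of these counts that comes from the cold values of the synthetases. With 2 libraries a group, the spread between libraries and not the fragment count limits these comparisons.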
